A study of Mus musculus with 8 samples.

Results

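The Hippo kinase cascade genes are the 10 mouse genes Stk3, Stk4, Sav1, Lats1, Lats2, Mob1a, Mob1b, Nf2, Wwc1 and Taok1. They were chosen by name for the roles of their proteins and not by a rule on their values, but with earlier results of these data known. They are 10 of the 53700 genes in the count table. All 10 passed the filter on low counts that left 13933 genes for testing. The RNA came from the mouse lung cancer line LLC (Lewis lung carcinoma), as WT cells and as cells in which Cas9 and a guide RNA against exon 2 of Hif1an, the gene of factor inhibiting HIF (FIH), had been applied (FIH-KO). Normoxia (21% O2) or hypoxia (1% O2) was applied to both kinds of cells for 16 hours, and each of the 4 groups had 2 libraries. FIH-KO cells were grown from single cells after dilution, so that the loss of FIH and differences carried by a clone cannot be told apart. No label says that the libraries of a group came from separate cultures, and the p values therefore measure only the spread between these libraries. CPM below is the count scaled to the size of the library after TMM normalization, fold changes are given on the log2 scale with the standard error (SE), and a gene was called when its adjusted p in edgeR was under 0.05.

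In the Hippo signaling pathway, the kinases MST1 and MST2, the products of Stk4 and Stk3, act with the scaffold SAV1 to phosphorylate the kinases LATS1 and LATS2 and their MOB1 partners. The LATS kinases in turn phosphorylate the coactivators YAP and TAZ, which are then kept in the cytoplasm or degraded. NF2 (merlin) and WWC1 (KIBRA) act upstream at the cell membrane, and TAOK1 can phosphorylate and switch on the MST kinases. The pathway is known for restraining growth, and much of its control runs through phosphorylation and protein location, which RNA counts do not record.

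The libraries held between 14519731 and 18177016 counts, of which the 10 cascade genes took between 0.122% and 0.156%, with 213 to 8006 counts for a gene in a library. Counting error alone did not account for the spread between libraries of the same group, which was smallest in WT normoxia (chi-square per degree of freedom 5.79) and widest in FIH-KO hypoxia (24.1). Hif1an had 84.6 and 82.3 CPM in the libraries of WT normoxia, 34.8 and 37.7 in FIH-KO normoxia, 90.2 and 84.0 in WT hypoxia, and 45.5 and 51.0 in FIH-KO hypoxia. Its level was thus lower in every FIH-KO library but not absent, and the counts do not show whether the remaining transcripts encode FIH. At the protein level, the paper reports that FIH was absent by Western blot and that selected clones were sequenced around the guide's target. Of the 5 epithelial markers, Epcam had a count of 0 in every library, which allows a level of up to 0.205 CPM in the smallest one, and Cdh1 had at most 1 count, whereas Krt8 and Krt18 were plentiful. The 5 markers together summed to 325.6–351.6 CPM in WT normoxia, 436.0–537.7 in FIH-KO normoxia, 225.6–283.1 in WT hypoxia and 333.6–446.7 in FIH-KO hypoxia. The higher sums in FIH-KO cells came mostly from Krt8, with means of 150.4 (WT) and 304.8 CPM (FIH-KO) in normoxia and 122.0 and 243.9 in hypoxia. Krt18 had 187.3 and 181.3 CPM in normoxia and 124.6 and 135.4 in hypoxia. Krt19 had 0.84 and 0.80 CPM in normoxia and 7.68 and 10.9 in hypoxia. The 4 mesenchymal markers summed to 4395–5151 CPM in WT normoxia, 8249–9043 in FIH-KO normoxia, 5541–5991 in WT hypoxia and 9179–11025 in FIH-KO hypoxia, and their part in the values below was not tested. Over all libraries, the 3 markers of lung epithelium summed to at most 0.056 CPM and the 4 of fibroblasts to 1.09–3.53. The 4 of leukocytes summed to 2.70–7.18 CPM and the 3 of endothelium to 0.179–2.41. Ptprc and Pecam1 were at or near 0 (up to 0.205 and 0.546 CPM). Most of the leukocyte sum came from Cd68, with group means of 2.92 to 5.63 CPM. Cdh5, an endothelial marker, had a mean of 1.60 CPM in WT hypoxia and at most 0.254 in the other groups.

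The differences that were called lay in 2 pairs of cascade genes. In each of the 4 comparisons, 20% of the cascade genes were called. Over all tested genes, 28.2% were called with genotype in normoxia and 28% in hypoxia. With oxygen, 32.4% of all tested genes were called in WT and 16.8% in FIH-KO cells. Nothing is read from these counts about the cascade as a whole. Nf2 and Wwc1 were lower in FIH-KO than in WT cells at either oxygen level. Lats1 and Taok1 were higher in hypoxia than in normoxia in either genotype. Stk3, Stk4, Sav1, Lats2, Mob1a and Mob1b were called in none of the 4 comparisons, and their values are given with intervals. The pairs rest on these calls alone, and a shared control of the genes of a pair was not tested. Calls of each of the 4 genes were lost when some single library was left out, as given below. The sequences just upstream of the 4 called genes are shown first. Each is the 250 bases before the first base of the gene's canonical transcript in GENCODE, read from GRCm39 and written 5′ to 3′ on the strand of the gene. Capitals mark the core of a hypoxia response element, searched as ACGTG and as GCGTG, or the core of the element bound by TEAD factors, searched as GGAATG, each on both strands. A match on the opposite strand reads as CACGC in Lats1 and as CATTCC in Wwc1.
Lats1, chr10:7556504-7556753, plus strand: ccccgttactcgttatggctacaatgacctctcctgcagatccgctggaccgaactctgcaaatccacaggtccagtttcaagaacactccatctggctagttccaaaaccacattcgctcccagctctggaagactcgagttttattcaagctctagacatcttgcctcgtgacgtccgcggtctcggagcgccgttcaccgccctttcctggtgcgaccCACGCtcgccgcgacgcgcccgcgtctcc
Taok1, chr11:77498687-77498936, minus strand: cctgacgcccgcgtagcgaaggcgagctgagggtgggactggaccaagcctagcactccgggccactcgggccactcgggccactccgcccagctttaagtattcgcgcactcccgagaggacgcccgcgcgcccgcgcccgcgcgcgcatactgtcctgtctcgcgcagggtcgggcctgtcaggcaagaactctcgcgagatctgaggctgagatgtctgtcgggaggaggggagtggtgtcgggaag
Nf2, chr11:4799537-4799786, minus strand: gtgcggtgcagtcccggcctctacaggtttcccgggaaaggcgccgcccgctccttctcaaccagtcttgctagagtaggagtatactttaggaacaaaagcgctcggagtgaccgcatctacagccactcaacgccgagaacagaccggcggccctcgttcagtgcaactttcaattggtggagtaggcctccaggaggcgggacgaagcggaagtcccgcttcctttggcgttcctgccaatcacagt
Wwc1, chr11:35871640-35871889, minus strand: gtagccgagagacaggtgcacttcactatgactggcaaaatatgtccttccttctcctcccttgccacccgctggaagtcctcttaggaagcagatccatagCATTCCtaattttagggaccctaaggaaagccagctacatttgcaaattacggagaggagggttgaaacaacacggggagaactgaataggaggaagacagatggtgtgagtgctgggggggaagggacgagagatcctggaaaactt

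The window of Lats1 held 1 hypoxia core, on the opposite strand from base -29 to -25 before the start, and that of Wwc1 held 1 TEAD core, on the opposite strand from -148 to -143. The windows of Taok1 and Nf2 held no match to either. Over all 10 cascade genes, 6 windows held a hypoxia core (Stk3, Stk4, Sav1, Lats1, Lats2 and Mob1b), beside 41.3% of the windows of 21757 protein-coding genes. In Stk4 and Mob1b the matches on both strands overlap in 1 palindrome, CACGTG. A TEAD core was found in 2 windows (Mob1a and Wwc1), beside 12.1% of all windows. Of the 2 genes that rose in hypoxia, 1 had a hypoxia core, and the cores of the other 5 genes lie before genes that were not called with oxygen. The matches describe these letters in these windows only, and their part in the calls was not tested.

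**Figure D1:**
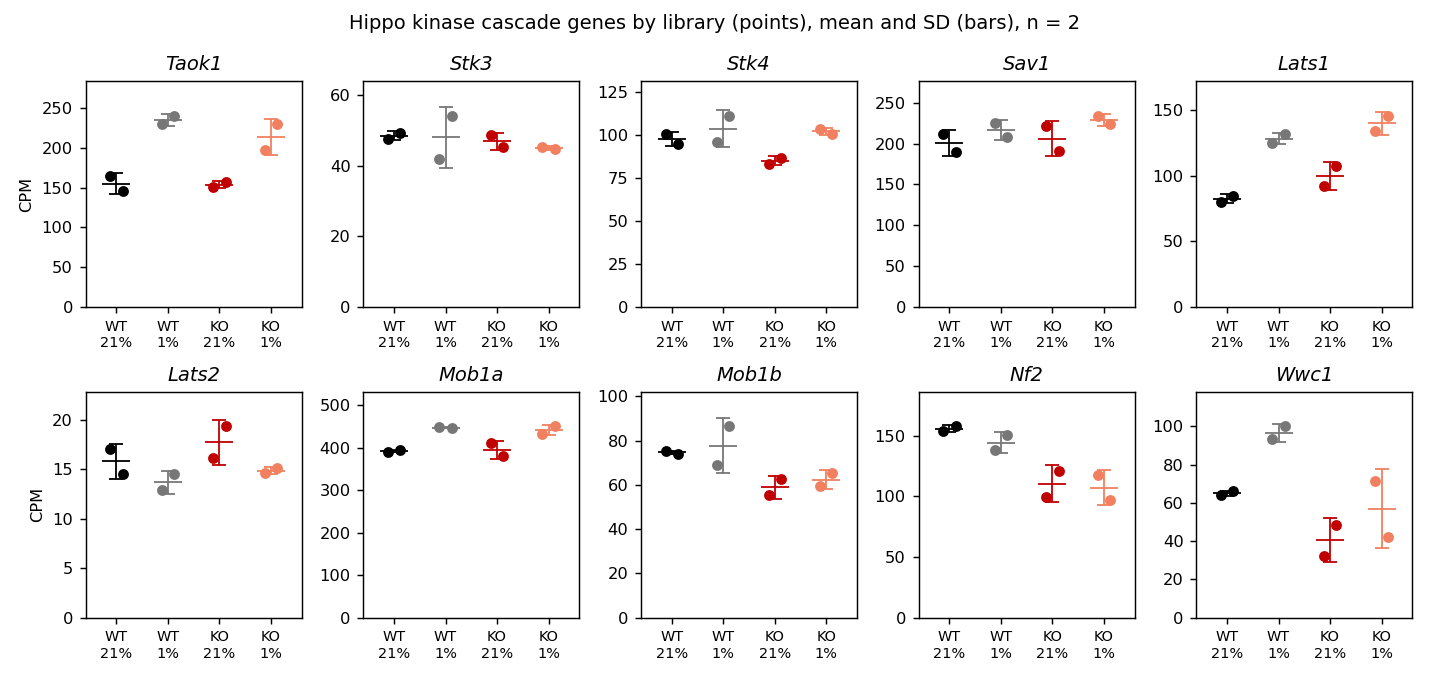
Level of each cascade gene in each library, in CPM (vertical axis from 0), by genotype and oxygen level. Points are libraries, and the horizontal line and bar are the mean and SD of the 2 libraries of a group. Wwc1 and Nf2 sit lower in both FIH-KO groups, Lats1 and Taok1 sit higher in both groups at 1% O2, and the FIH-KO libraries of Wwc1 lie at 32.3 and 48.6 CPM at 21% O2 and at 71.7 and 42.3 at 1% O2.

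Levels can be compared between genes only per length, and are given here as CPM per kilobase of the gene's merged exons, averaged over the 8 libraries. Mob1a, an adaptor that binds and helps to activate LATS kinases, was the most abundant at 85.4 CPM per kilobase, higher than 97.9% of the tested genes. It was followed by Sav1 at 25.1, Taok1 at 14.5, Stk4 at 12.6, Nf2 at 12, Lats1 at 8.96 and Wwc1 at 7.95 CPM per kilobase. On this length the lowest levels were those of Mob1b at 4.50, Stk3 at 3 and Lats2 at 1.48 CPM per kilobase, the last above only 28.0% of the tested genes. Over the libraries, Mob1a ranged from 77.4 to 91.8 and Sav1 from 22.4 to 27.6 CPM per kilobase, without overlap with each other or with the next gene. Taok1 (11.1 to 18.4), Stk4 (10.8 to 14.5), Nf2 (9 to 14.7), Lats1 (6.38 to 11.6) and Wwc1 (3.96 to 12.3) overlapped their neighbours in the order. Mob1b (3.63 to 5.69) overlapped Wwc1 but not Stk3 (2.67 to 3.45), which did not overlap Lats2 (1.23 to 1.85). Within 2 of the 3 pairs of paralogs, Lats1 and Mob1a were above Lats2 and Mob1b in every library, with the length of the merged exons and with that of the canonical transcript. The rest of the order depended on the length: per kilobase of the canonical transcript, an alternative added after the values were seen, the levels were 95 for Mob1a, 61.1 for Sav1, 27.4 for Nf2, 18.5 for Stk4, 16.1 for Stk3, 15.2 for Taok1, 15.1 for Lats1, 13.4 for Wwc1, 7.63 for Mob1b and 2.83 for Lats2. Stk3, whose merged exons span 15680 bases and whose canonical transcript has 2914, thus stood above Taok1, Lats1, Wwc1 and Mob1b on this length, with 14.4 to 18.6 beside 15.8 to 21.2 for Stk4.

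Nf2 (ENSMUSG00000009073.17, chromosome 11, 4715841 to 4799536, minus strand) encodes merlin, a tumor suppressor that links membrane receptors and the cytoskeleton and recruits LATS kinases to the membrane. It had 154.0 and 158.0 CPM in the libraries of WT normoxia and 99.7 and 121.2 in those of FIH-KO normoxia. In hypoxia it had 138.2 and 150.8 CPM in WT and 117.4 and 96.9 in FIH-KO cells. All 4 FIH-KO libraries lay below all 4 WT libraries. The log2 fold change of FIH-KO over WT was -0.50 in normoxia (SE 0.13, 95% interval -0.78 to -0.22, adjusted p = 0.013, edgeR), or 0.708 of the WT level. In hypoxia it was -0.43 (SE 0.13, interval -0.71 to -0.15, adjusted p = 0.026), or 0.742 of the WT level. Hypoxia over normoxia, Nf2 had -0.11 in WT (SE 0.13, adjusted p = 0.54) and -0.04 in FIH-KO cells (SE 0.13, adjusted p = 0.86), neither of which was called. The direction of the genotype difference held with each library left out in turn, but the adjusted p reached 0.11 in normoxia without FIH-KO normoxia replicate 1 and exceeded 0.05 also without either WT normoxia library (0.061 and 0.072). In hypoxia it was 0.15 without FIH-KO hypoxia replicate 2, 0.085 and 0.16 without WT hypoxia replicate 1 and 2, 0.068 without either WT normoxia library, and 0.059 with only the 4 hypoxia libraries in the fit.

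Wwc1 (ENSMUSG00000018849.7, chromosome 11, 35729216 to 35871639, minus strand) encodes KIBRA, a WW-domain scaffold that joins merlin and the kinases. It had 63.9 and 66.0 CPM in WT normoxia and 32.3 and 48.6 in FIH-KO normoxia. In hypoxia the WT libraries had 93.3 and 100.1 CPM and the FIH-KO libraries 71.7 and 42.3. Both FIH-KO libraries were below both WT libraries at each oxygen level, although the FIH-KO libraries of a group differed widely from each other. The log2 fold change of FIH-KO over WT was -0.68 in normoxia (SE 0.22, interval -1.17 to -0.20, adjusted p = 0.037, edgeR) and -0.76 in hypoxia (SE 0.22, interval -1.24 to -0.28, adjusted p = 0.022), or 0.623 and 0.590 of the WT level. At both oxygen levels this difference was larger in size than that of the other 9 cascade genes. It depended in size on single libraries: the normoxia value was -0.44 without FIH-KO normoxia replicate 1 (adjusted p = 0.26) and -1.04 without replicate 2, and the hypoxia value was -0.43 without FIH-KO hypoxia replicate 2 (adjusted p = 0.13) and -1.15 without replicate 1. The adjusted p was also 0.11 and 0.13 in normoxia without WT normoxia replicate 1 or 2, 0.050 and 0.058 there without WT hypoxia replicate 1 or 2, and 0.087 and 0.11 in hypoxia without WT hypoxia replicate 1 or 2. Hypoxia over normoxia, Wwc1 had a log2 value of 0.57 in WT cells (SE 0.22, interval 0.10 to 1.05, adjusted p = 0.063), where the groups did not overlap, and 0.49 in FIH-KO cells (SE 0.22, interval 0.01 to 0.98, adjusted p = 0.15), where they did. The WT value passed the threshold with DESeq2 (adjusted p = 0.039), with no filter on low counts (0.00099), with only the 4 WT libraries (0.00044) and without FIH-KO hypoxia replicate 1 or 2 (0.017 and 0.012), and the FIH-KO value with no filter (0.0088) and without FIH-KO hypoxia replicate 2 (0.0091).

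Taok1 (ENSMUSG00000017291.14, chromosome 11, 77419988 to 77498686, minus strand) encodes a kinase that phosphorylates MST kinases. It had 163.9 and 145.3 CPM in WT normoxia and 229.6 and 240.4 in WT hypoxia. In FIH-KO cells it had 150.4 and 156.8 CPM in normoxia and 196.9 and 229.4 in hypoxia. All 4 hypoxia libraries were above all 4 normoxia libraries. The log2 fold change of hypoxia over normoxia was 0.60 in WT (SE 0.11, interval 0.35 to 0.85, adjusted p = 0.0021, edgeR) and 0.47 in FIH-KO cells (SE 0.11, interval 0.22 to 0.72, adjusted p = 0.016), or 1.52 and 1.39 times the normoxia level. The WT call was lost without WT normoxia replicate 2 (0.48, adjusted p = 0.060). The FIH-KO call was lost without FIH-KO hypoxia replicate 2 (0.35, adjusted p = 0.062), without FIH-KO normoxia replicate 1 (0.46, adjusted p = 0.079) and with only the 4 FIH-KO libraries in the fit (0.50, adjusted p = 0.051). FIH-KO over WT, Taok1 had -0.01 in normoxia (SE 0.11, interval -0.26 to 0.24) and -0.14 in hypoxia (SE 0.11, interval -0.39 to 0.11), and neither was called.

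The genes of the MST kinases and their scaffold were called in no comparison. Stk3 (ENSMUSG00000022329.16, chromosome 15, 34874700 to 35179067, minus strand), which encodes MST2, had 47.5 and 49.3 CPM in WT normoxia, 48.6 and 45.2 in FIH-KO normoxia, 41.9 and 54.1 in WT hypoxia and 45.3 and 44.6 in FIH-KO hypoxia. The groups overlapped in all 4 comparisons, and its log2 fold changes lay between -0.09 and -0.01, each with an SE of 0.14. Stk4 (ENSMUSG00000018209.16, chromosome 2, 163912242 to 163997444, plus strand), which encodes MST1, had 100.8 and 95.02 CPM in WT normoxia, 83.3 and 86.9 in FIH-KO normoxia, 96.1 and 111.3 in WT hypoxia and 103.6 and 100.7 in FIH-KO hypoxia. FIH-KO normoxia was thus the lowest group, below WT normoxia by a log2 value of -0.20 (SE 0.11, interval -0.44 to 0.04, adjusted p = 0.20, edgeR) and below FIH-KO hypoxia, which was higher by 0.26 (SE 0.11, interval 0.02 to 0.50, adjusted p = 0.13). Sav1 (ENSMUSG00000021067.9, chromosome 12, 70003735 to 70033975, minus strand) encodes the scaffold that joins MST and LATS kinases and had 189.6 to 212.1 CPM in WT normoxia, 190.9 to 221.6 in FIH-KO normoxia, 208.0 to 225.4 in WT hypoxia and 223.6 to 234.4 in FIH-KO hypoxia. Its log2 fold changes ran from 0.04 to 0.15 with an SE of 0.12, and the highest interval bound was 0.40, for hypoxia in FIH-KO cells. In the annotation, 24.8% of the exon bases of Sav1 lie opposite exons of Atl1, which had at most 87 counts in a library. Of the stretches of 100 bases in the canonical Sav1 transcript, 61.6% match Atl1 or Gm59537 when searched on both strands. Both of these genes lie on the opposite strand, and the strand setting of the counting is not given in the sources used here.

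Lats1 (ENSMUSG00000040021.14, chromosome 10, 7556736 to 7592226, plus strand) encodes one of the kinases that phosphorylate YAP and TAZ. It had 80.2 and 84.9 CPM in WT normoxia and 125.2 and 131.6 in WT hypoxia. In FIH-KO cells it had 92.1 and 107.1 CPM in normoxia and 133.8 and 145.9 in hypoxia. Every hypoxia library was above every normoxia library, and within each oxygen level both FIH-KO libraries were above both WT libraries. The log2 fold change of hypoxia over normoxia was 0.64 in WT (SE 0.11, interval 0.39 to 0.88, adjusted p = 0.0014, edgeR) and 0.49 in FIH-KO cells (SE 0.11, interval 0.25 to 0.73, adjusted p = 0.012), or 1.55 and 1.40 times the normoxia level. The WT call held in every alternative fit and with any 1 library left out, and the FIH-KO call was lost without FIH-KO normoxia replicate 1 (0.40, adjusted p = 0.088). The genotype difference was 0.27 in normoxia (SE 0.11, interval 0.03 to 0.52, adjusted p = 0.094) and 0.12 in hypoxia (SE 0.11, interval -0.12 to 0.37, adjusted p = 0.45) and was not called.

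Lats2 (ENSMUSG00000021959.17, chromosome 14, 57926960 to 57995845, minus strand) encodes the second LATS kinase and is itself a known target of YAP and TAZ. It had 17.0 and 14.6 CPM in WT normoxia, 16.1 and 19.4 in FIH-KO normoxia, 12.9 and 14.5 in WT hypoxia and 14.6 and 15.1 in FIH-KO hypoxia. With 213 to 346 counts in a library it was the least covered of the 10 genes. In both genotypes the hypoxia libraries lay below the normoxia libraries, by a log2 value of -0.20 in WT (SE 0.17, interval -0.58 to 0.17, adjusted p = 0.39, edgeR) and -0.26 in FIH-KO cells (SE 0.17, interval -0.63 to 0.11, adjusted p = 0.34), neither of which passed the test. The genotype values were 0.17 in normoxia (interval -0.20 to 0.54) and 0.12 in hypoxia (interval -0.26 to 0.49). In the annotation, 28.2% of the exon bases of Lats2, and 53% of the stretches of 100 bases in its canonical transcript, are shared on the same strand with Gm49361, which had 0 counts in every library. The level of Lats2 and the Lats1 to Lats2 ratio rest on this, and whether reads of that stretch were counted for Lats2 is not given in the sources used here.

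**Figure D2:**
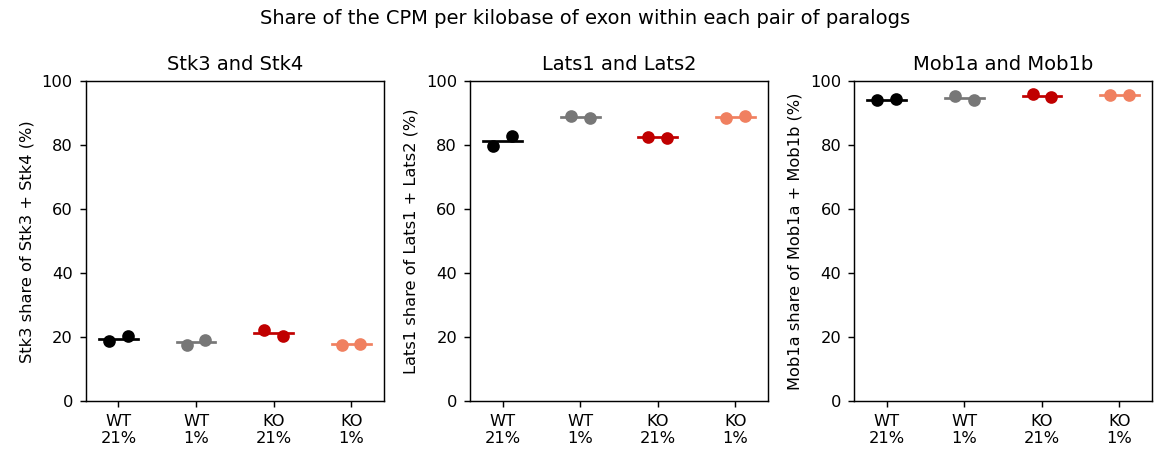
Share of each pair's summed CPM per kilobase of merged exons that came from Stk3, Lats1 or Mob1a, in percent (vertical axis from 0 to 100), by library (points), with the mean of each group (line). The Lats1 share is 79.7–83.0% in the 4 normoxia libraries and 88.3–89.0% in the 4 hypoxia libraries. The other shares differ less between groups in percentage points, which for a share near 100% can hide a difference in the ratio.

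The Lats1 share of the LATS pair was higher in the hypoxia libraries than in the normoxia libraries. It is built from the same Lats1 values that were called with oxygen, and is no separate result. Lats1 gave 79.7% and 83.0% of the summed CPM per kilobase of Lats1 and Lats2 in WT normoxia and 82.7% and 82.2% in FIH-KO normoxia. In hypoxia its share was 89.0% and 88.3% in WT and 88.4% and 89.0% in FIH-KO cells. The ratio of Lats1 to Lats2 was thus 3.93 to 4.87 in the normoxia libraries and 7.55 to 8.11 in the hypoxia libraries, with no overlap in either genotype. Among single tested genes, the oxygen groups did not overlap for 70.8% in WT and 55.2% in FIH-KO cells. A share over pairs of genes was not computed. Of the MST pair, Stk3 gave between 17.6% and 22.3% over the 8 libraries with merged exons, but between 44.0% and 51.3% with canonical transcripts, so that these data do not settle which of the pair is the more abundant. Mob1a gave between 94.1% and 95.8% of its pair. As a ratio, Mob1a to Mob1b was 16.06 and 16.49 in WT normoxia and 23.02 and 18.85 in FIH-KO normoxia. In hypoxia it was 20.2 and 16.01 in WT and 22.55 and 21.37 in FIH-KO cells. The genotypes thus did not overlap in this ratio at either oxygen level. With canonical transcripts the Lats1 to Lats2 ratio was 3.48 to 4.30 in normoxia and 6.68 to 7.17 in hypoxia, again without overlap. These shares and ratios were not tested.

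Mob1a (ENSMUSG00000043131.15, chromosome 6, 83302997 to 83320762, plus strand) and Mob1b (ENSMUSG00000006262.16, chromosome 5, 88868702 to 88912079, plus strand) encode the MOB1 adaptors. Mob1a had 390.1 and 394.6 CPM in WT normoxia, 410.2 and 380.2 in FIH-KO normoxia, 448.7 and 446.9 in WT hypoxia and 432.8 and 450.9 in FIH-KO hypoxia. Every hypoxia library was above every normoxia library, by log2 values of 0.19 in WT (SE 0.10, interval -0.04 to 0.42, adjusted p = 0.19, edgeR) and 0.16 in FIH-KO cells (SE 0.10, interval -0.07 to 0.39, adjusted p = 0.33) that did not pass the test. Its genotype values of 0.01 and -0.02 had intervals within -0.25 to 0.24. Mob1b had 75.3 and 74.2 CPM in WT normoxia, 55.3 and 62.5 in FIH-KO normoxia, 68.9 and 86.6 in WT hypoxia and 59.5 and 65.4 in FIH-KO hypoxia. Both FIH-KO groups lay below the WT group of the same oxygen level. The log2 fold change of FIH-KO over WT was -0.34 in normoxia (SE 0.13, interval -0.63 to -0.06, adjusted p = 0.070) and -0.31 in hypoxia (SE 0.13, interval -0.60 to -0.03, adjusted p = 0.095) and was not called. In normoxia it passed with only the 4 libraries of the comparison (adjusted p = 0.036), without FIH-KO hypoxia replicate 1 (0.041) and without WT hypoxia replicate 1 (0.046). Hypoxia over normoxia, Mob1b had 0.06 in WT and 0.08 in FIH-KO cells, each with an SE of 0.13, and the groups overlapped.

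**Figure D3:**
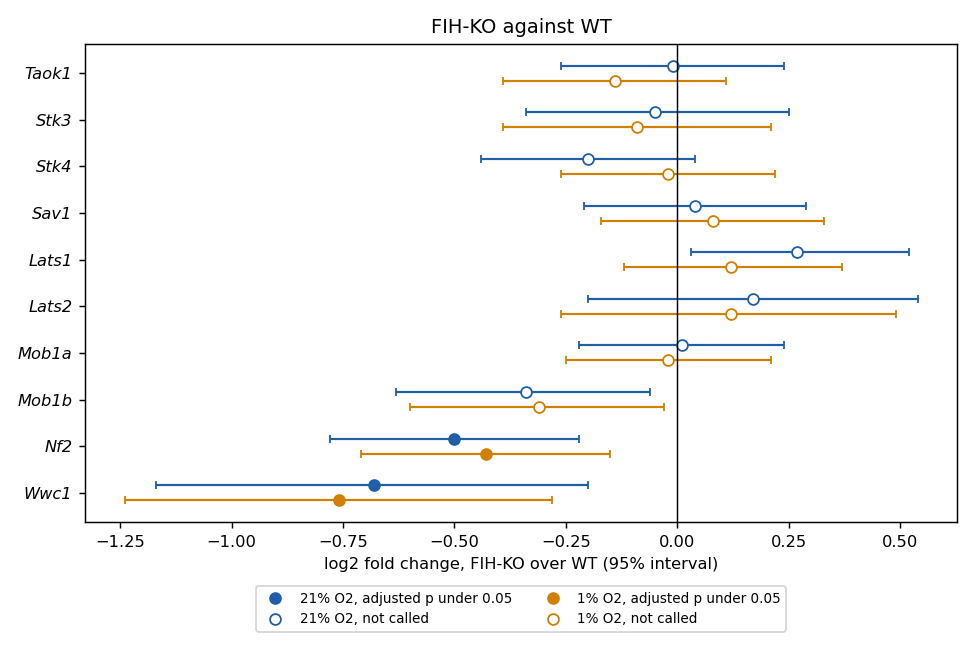
Log2 fold change of FIH-KO over WT for the 10 cascade genes (horizontal axis) at 21% and 1% O2, with 95% intervals from edgeR. Filled points have an adjusted p under 0.05: Nf2 (-0.50 and -0.43) and Wwc1 (-0.68 and -0.76) are filled at both oxygen levels, and the other 8 genes are open.

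Set side by side, FIH-KO and WT cells differed in 2 of the 10 cascade genes in normoxia and in 2 of 10 in hypoxia, Nf2 and Wwc1 each time, and both were lower. Over all tested genes, 28.2% were called in normoxia (13% lower) and 28% in hypoxia (13.9% lower), beside 20% of the cascade genes. In a group of 10 genes this share is near the background and is no result about the cascade as a whole. The 10 genes had a median log2 value of -0.03 in normoxia and -0.06 in hypoxia, beside 0.00 and -0.03 over all tested genes. The groups did not overlap for 5 of the 10 genes in normoxia (Lats1 higher; Stk4, Mob1b, Nf2 and Wwc1 lower), beside 69.4% of all tested genes (34.6% higher and 34.8% lower). In hypoxia they did not overlap for 6 of 10 (Lats1 and Lats2 higher; Mob1b, Nf2, Wwc1 and Taok1 lower), beside 61.7% of all tested genes (29.1% higher and 32.5% lower).

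**Figure D4:**
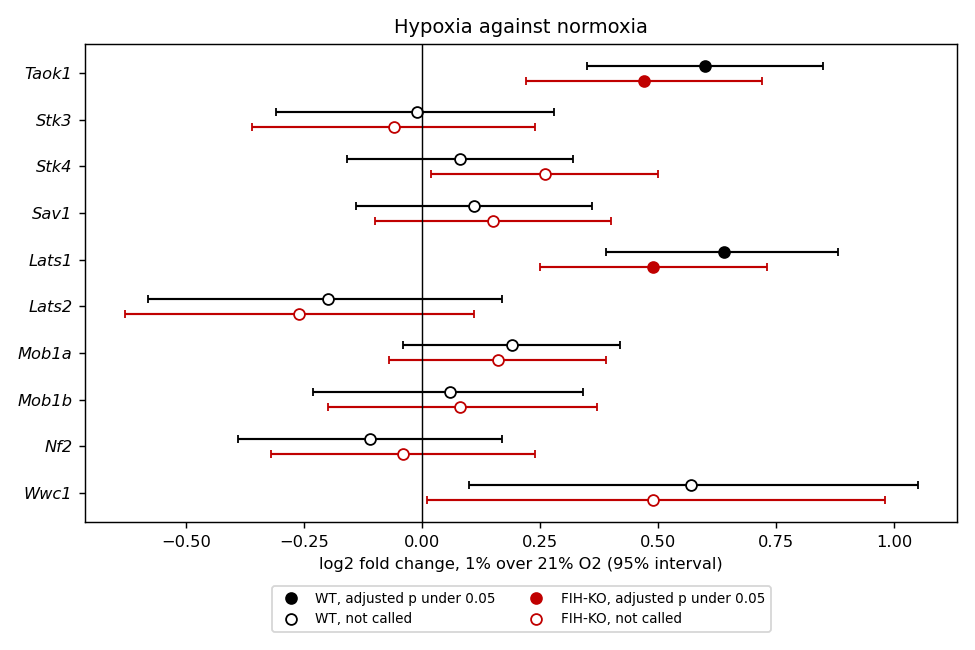
Log2 fold change of hypoxia over normoxia for the 10 cascade genes (horizontal axis) in WT and FIH-KO cells, with 95% intervals from edgeR. Filled points have an adjusted p under 0.05: Lats1 (0.64 and 0.49) and Taok1 (0.60 and 0.47) are filled in both genotypes, and Wwc1 (0.57 and 0.49) has intervals above 0 but open points.

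Hypoxia and normoxia differed in 2 of the 10 cascade genes in WT and in 2 of 10 in FIH-KO cells, Lats1 and Taok1 each time, and both were higher in hypoxia. The background was 32.4% of all tested genes in WT (16.9% higher) and 16.8% in FIH-KO cells (8.84% higher), beside 20% of the cascade genes in each. The 10 genes had a median log2 value of 0.10 in WT and 0.16 in FIH-KO cells, beside 0.00 and -0.03 over all tested genes. The groups did not overlap for 6 genes in WT cells (Lats1, Mob1a, Wwc1 and Taok1 higher; Lats2 and Nf2 lower), beside 70.8% of all tested genes (35.2% higher and 35.6% lower). In FIH-KO cells they did not overlap for 6 (Stk4, Sav1, Lats1, Mob1a and Taok1 higher; Lats2 lower), beside 55.2% (25.9% higher and 29.3% lower). The genotype comparisons and the oxygen comparisons share libraries and are not independent of each other.

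Whether the effect of FIH-KO differed between oxygen levels was tested as an interaction. No cascade gene was called by edgeR, none had an unadjusted p under 0.05 (0 of 10), and the smallest adjusted p was 0.86. DESeq2 also called 0 of the 10. The difference in effect, hypoxia minus normoxia, had intervals of -0.33 to 0.46 for Nf2, -0.76 to 0.60 for Wwc1, -0.49 to 0.20 for Lats1 and -0.48 to 0.22 for Taok1, which leave room for moderate differences, above all for Wwc1. Over all 13933 tested genes, edgeR called 0 interactions with 925 at an unadjusted p under 0.05, and DESeq2 called 37.

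**Figure D5:**
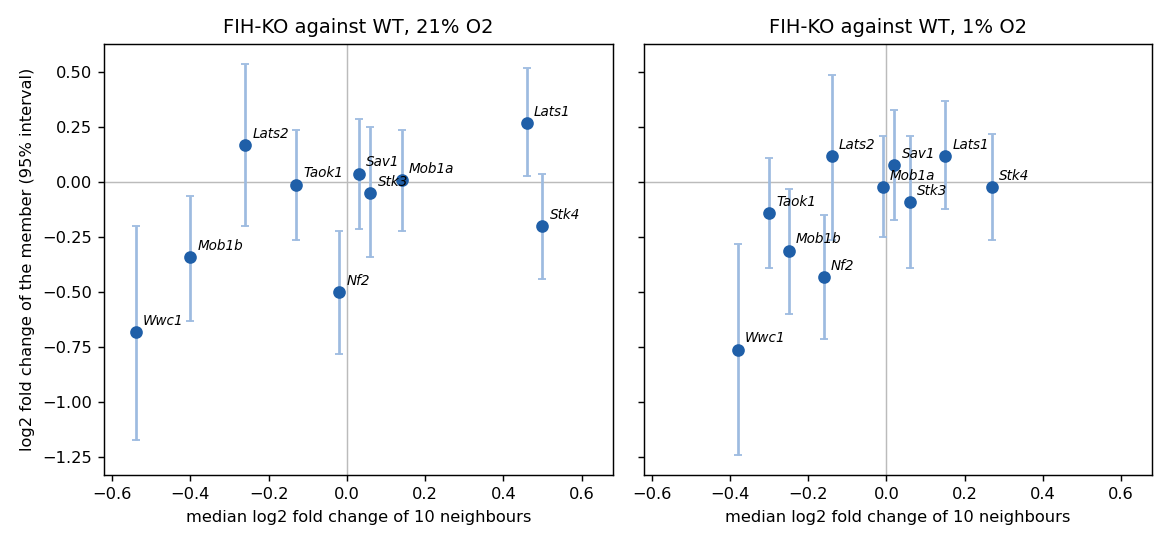
Log2 fold change of FIH-KO over WT of each cascade gene (vertical axis, with its 95% interval) against the median log2 value of the 10 tested genes nearest to it on the chromosome (horizontal axis), at 21% and 1% O2. Wwc1 lies at the lower left, with neighbours at -0.54 and -0.38, and Nf2 lies low with neighbours at -0.02 and -0.16.

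Because FIH-KO cells were derived from single cells, each gene was set beside the 5 nearest tested genes on either side. The 10 neighbours of Wwc1 had a median log2 fold change of FIH-KO over WT of -0.54 in normoxia, with 5 called lower and 1 higher, and of -0.38 in hypoxia, with 4 lower and 2 higher. Those of Nf2 had medians of -0.02 (1 lower) and -0.16 (3 lower), and those of Mob1b had -0.40 and -0.25 (3 lower each time). The neighbours of Lats1 had 0.46 in normoxia (4 higher) and 0.15 in hypoxia (1 higher), next to the 0.27 and 0.12 of Lats1 itself. Stk4 went the other way from its surroundings in normoxia, at -0.20 beside a neighbour median of 0.50 (4 higher). For chromosome 11 as a whole, which carries Nf2, Wwc1 and Taok1, the median over 1098 tested genes was -0.05 in normoxia and -0.08 in hypoxia. The part of the neighbourhood in the differences of Wwc1, Mob1b and Lats1 was not tested. With oxygen in WT cells, the neighbour medians were 0.05 for Lats1 and 0.15 for Taok1, next to their own 0.64 and 0.60.

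The genes whose log2 CPM over the 8 libraries was most like that of a called cascade gene were sought among 10575 genes, as a description of 8 libraries that share their groups. They were Zfr and Rad51b for Lats1 (Pearson r 0.995 and 0.994), Cspp1 and 2500002B13Rik for Taok1 (0.997 and 0.989), Eif2b3 and Gfm2 for Nf2 (0.986 each), and Ccdc85c and Ogg1 for Wwc1 (0.985 and 0.981).

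The counts called in the lists of other pathway genes stand beside 28.2% of all tested genes called with genotype in normoxia (15.2% higher and 13% lower) and 28% in hypoxia (14.1% higher and 13.9% lower), and nothing is read from them about a list as a whole. Around the cascade, the 12 tested of 14 kinases parallel or related to the core (such as the MAP4K and NDR kinases, which can also act on LATS or YAP) had log2 values of FIH-KO over WT between -0.23 and 0.39 in normoxia, with unadjusted p values from 0.10 to 0.99 (edgeR). Stk24, Map4k1 and Taok3 of this list are named after their values were seen. In hypoxia Stk24 and Map4k1 were higher in FIH-KO than in WT cells by 0.65 and 0.72 (adjusted p = 0.0012 and 0.045, edgeR). From normoxia to hypoxia, Map4k1 fell by 1.16 in WT and by 0.83 in FIH-KO cells on the log2 scale. Stk24 had -0.03 in WT (adjusted p = 0.88, edgeR) and 0.60 in FIH-KO cells (adjusted p = 0.0037). Taok3, a paralog of Taok1, had 0.34 in WT (adjusted p = 0.11) and 0.58 in FIH-KO cells (adjusted p = 0.021). No interaction was called for a gene of this list. Of 13 tested of 14 genes of STRIPAK, a phosphatase complex that removes the activating phosphate from MST kinases, 1 was higher and 5 lower in FIH-KO normoxia, and 2 were higher and 2 lower in hypoxia. Sike1, a STRIPAK subunit, fell by 0.40 on the log2 scale in normoxia (adjusted p = 0.031, edgeR) and by 0.58 in hypoxia (adjusted p = 0.0049). The scaffold gene Strn rose by 0.37 and 0.45 (adjusted p = 0.029 and 0.012). Of the 17 tested of 24 upstream membrane, polarity and junction genes, 5 were higher and 1 lower in normoxia, and 5 higher and 3 lower in hypoxia. Ctnna1, the alpha-catenin gene, rose by 0.74 and 0.53 (adjusted p = 0.00053 and 0.0042) and the polarity gene Dlg5 by 0.56 each time (adjusted p = 0.0017 and 0.0018). Of the 14 tested of 16 LATS inhibitors and ubiquitin ligases, 3 were higher and 3 lower in normoxia, and 1 was higher and 4 lower in hypoxia. Wwp1, a ubiquitin ligase that can target LATS1 for degradation, rose by 1.24 and 0.89 (adjusted p = 0.00034 and 0.0026), and Dcaf1, the substrate receptor of a ligase that merlin binds and restrains, fell by 0.49 and 0.50 (adjusted p = 0.0039 and 0.0034).

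Below the cascade, the genes of the coactivators it acts on were not called: Yap1 had log2 values of -0.18 in normoxia and -0.19 in hypoxia (adjusted p = 0.22 and 0.19, edgeR), and Wwtr1, the TAZ gene, had 0.02 and -0.07 (adjusted p = 0.92 and 0.64). Of the angiomotins, which bind YAP and LATS kinases, Amot was higher by 4.57 and 5.06 (adjusted p = 5.5e-07 and 9.5e-07), Amotl2 rose by 0.62 in normoxia (adjusted p = 0.027) and had 0.20 in hypoxia (adjusted p = 0.49), and Amotl1 had 0.21 and 0.04 (adjusted p = 0.23 and 0.85). Of the 14 effectors and their direct regulators, all tested, 3 were higher and 1 lower in normoxia, and 2 higher and 2 lower in hypoxia, among them Tead3 (1.35 and 1.03) and Tead4 (-1.01 and -0.89), genes of the DNA-binding partners of YAP. Of the 9 tested of 10 YAP and TAZ target readouts, 2 were higher and 3 lower in normoxia, beside 28.2% of all tested genes called. In hypoxia 1 was higher and 3 lower, beside 28%. These readouts share Lats2 with the cascade, Amotl2 with the effectors and Ajuba with the LATS inhibitors, so that their counts overlap. Myc fell by 1.04 and 1.47 and Areg by 1.06 and 0.85, whereas Crim1 rose by 0.88 and 0.53. Some of these readouts were measured by the study in the same cells, and their list is therefore no independent evidence of a direction. Of the 5 other MOB genes, all tested, 2 were higher and 1 lower in normoxia, and 1 was higher and 1 lower in hypoxia. Mob3a was higher by 0.62 and 0.56, and Mob4 is also in the STRIPAK list.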

How the data were processed

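RNA-Seq was performed on 8 LLC libraries, 2 for each combination of genotype and oxygen level. Stranded mRNA libraries were sequenced paired-end, and, per the study's methods, bcl2fastq, STAR (mouse genome GRCm39) and HTSeq took the reads to counts per gene. The authors deposited these raw counts without scaling; the annotation release, strand setting and treatment of reads with several positions are not given in the sources used here. The main test was the quasi-likelihood test of edgeR 4.0.16 in R 4.3.3 (filterByExpr by group, TMM, one model of 4 group means, Benjamini-Hochberg over 13933 genes, biological coefficient of variation 11.7%). Intervals are at 95% and, like the SE, rest on the spread between libraries; the limit for a count of 0 is 3 counts and covers counting error only.

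Alternatives were DESeq2 1.42.0, RLE or upper-quartile scaling, no filter beyond 1 read, at least 10 counts in every library, a replicate block, only the 4 libraries compared, and leaving out 1 library at a time; for levels per kilobase, the canonical transcript length in place of the merged exons was added after the data were seen. Positions, exons and promoters came from GENCODE vM39 on GRCm39 (52610 of 53700 identifiers found, 10 of 10 cascade genes), read with pysam 0.24.0 in Python 3.11.15.

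The 10 genes, the other gene lists and the tests were chosen with earlier results of these data known. Named outside the cascade were Hif1an, Yap1, Wwtr1 and the angiomotins; of each other list, up to 4 genes called in both genotype comparisons in the same direction with a mean of at least 50 counts, by the smaller absolute change; and for each called cascade gene the 2 genes of most similar profile. Stk24, Map4k1 and Taok3 fall outside this rule and were named after their values were seen. Some genes that the rule names are not reported here.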

Additional observations from a re-analysis of the deposited data

How the results depend on the processing

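The number of cascade genes called stayed within 1.5 times the main count in every comparison under DESeq2, RLE and upper-quartile scaling and both other filters. With only the 4 libraries of a comparison it was 1 for FIH-KO against WT in hypoxia (Wwc1) and 1 for hypoxia against normoxia in FIH-KO cells (Lats1). With each library left out in turn, where the lone library of an arm is assumed to vary like the other groups, it ranged from 0 to 3 for genotype in normoxia, 0 to 2 for genotype in hypoxia, 1 to 3 for oxygen in WT cells, 0 to 2 for oxygen in FIH-KO cells and 0 to 0 for the interaction.

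The labels give no batch to the replicate numbers. Differences between the libraries of a group, taken in the order of their numbers, correlated between groups at -0.01 to 0.19 over 13933 genes. Each group gives a single such difference, so these values cannot decide whether same-numbered libraries shared a batch. With the replicate block, 3 cascade genes were called for genotype in normoxia (Mob1b added, adjusted p = 0.048, edgeR), 2 in each other comparison of 2 groups and 0 for the interaction, for which it called 5 genes in all.

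Signs turned for these values, none of which was called in the main test. For genotype in normoxia, Mob1a became -0.0037 with upper-quartile scaling and -0.0036 with at least 10 counts, and Taok1 became 0.01 with no filter. For genotype in hypoxia, Mob1a became 0.0011 with DESeq2, 0.02 with no filter and 0.01 with the 4 libraries, and Stk4 became 0.02 and 0.01 under the last 2; the interaction of Mob1a became 0.00091 with at least 10 counts. Leaving out single libraries, signs turned within these ranges: for genotype in normoxia Sav1 -0.09 to 0.12, Mob1a -0.07 to 0.04 and Taok1 -0.12 to 0.05; in hypoxia Stk3 -0.23 to 0.11, Stk4 -0.09 to 0.09, Mob1a -0.04 to 0.05 and Taok1 -0.25 to 0.01; for oxygen in WT cells Stk3 -0.21 to 0.12, Stk4 -0.03 to 0.15, Sav1 -0.01 to 0.16 and Mob1b -0.12 to 0.17; for oxygen in FIH-KO cells Stk3 -0.09 to 0.01 and Nf2 -0.16 to 0.13; and for the interaction Stk3 -0.16 to 0.15, Sav1 -0.01 to 0.21, Lats1 -0.21 to 0.03, Lats2 -0.12 to 0.15, Mob1a -0.06 to 0.08, Mob1b -0.07 to 0.21, Nf2 -0.01 to 0.28, Wwc1 -0.44 to 0.31 and Taok1 -0.24 to 0.04. Without the filter on low counts the interaction was called for 143 genes and with DESeq2 for 37, beside 0 in the main test.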
